A study of Mus musculus with 12 samples.

Results

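The genes described here are 6 RNAs of mouse liver that are known from earlier work to be held in the cell nucleus: Malat1, Neat1, Nlrp6, Kcnq1ot1, Snhg11 and Mlxipl. They were taken by gene name from a table of 52636 genes, and all 6 passed a filter on low values that left 16563 genes for testing. Each was measured in 12 RNA sequencing libraries from 6 mice, 3 wild type (WT) and 3 Ptprk knockout (KO) animals. Ptprk codes for a receptor-type tyrosine phosphatase of the cell surface. All of the livers were steatotic per the labels, viable hepatocytes were parted by lipid content on a density gradient with differential centrifugation, and polyA RNA was sequenced. Both fractions of every mouse were sequenced, which gives 4 groups of 3 libraries: the low-fat fraction of WT mice, their high-fat fraction, and the same fractions of KO mice. Replicates 1, 2 and 3 are mice WT1, WT5 and WT6 in the WT groups and mice KO2, KO4 and KO6 in the KO groups. The strain, age, sex and diet of the mice, and the part of Ptprk that was deleted, are not given in the sources used here. No nuclear and cytoplasmic RNA was measured apart, so the place of these RNAs in the cell is background and not a result.

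Most messenger RNA leaves the nucleus soon after it has been spliced, but some RNAs stay. Malat1 gathers in nuclear speckles, which are stores of splicing factors. Neat1 is the scaffold of the paraspeckles, bodies that lie next to the speckles and hold RNA and RNA-binding proteins. Kcnq1ot1 stays at the imprinted locus from which it is transcribed and silences neighbouring genes on the paternal chromosome. Snhg11 is the host transcript of small nucleolar RNAs. Nlrp6 codes for an inflammasome sensor and Mlxipl for ChREBP, the transcription factor that turns on glycolytic and lipogenic genes when glucose is plentiful. The messenger RNAs of both have been reported to be more abundant in the nucleus than in the cytoplasm of mouse liver.

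Malat1 and the long form of Neat1 share an unusual way of ending. Their 3′ ends are cut by RNase P, and a pair of U-rich stretches folds with an A-rich stretch into a triple helix that protects the end in place of a polyA tail. The sequences are shown because the libraries were made from polyA RNA, and the A-rich stretch of these RNAs is written in the genome. They come from the GENCODE M21 transcripts and are printed as DNA, with a U-rich stretch that both RNAs hold letter for letter, and the A-rich stretch, in capitals. Other letters that both hold, such as the U-rich letters farther upstream, are not marked. In the short form of Neat1, which ends with an ordinary polyA tail, the capitals mark the polyadenylation signal AATAAA.
Malat1-201, bases 6592 to 6691 of 6983: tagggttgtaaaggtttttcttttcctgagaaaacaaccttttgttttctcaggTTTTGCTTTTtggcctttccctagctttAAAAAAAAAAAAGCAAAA
Neat1-201, bases 20672 to 20771 of 20771: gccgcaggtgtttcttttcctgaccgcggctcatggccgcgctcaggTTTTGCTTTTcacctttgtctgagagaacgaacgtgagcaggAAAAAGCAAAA
Neat1-202, bases 2945 to 3004 of 3004: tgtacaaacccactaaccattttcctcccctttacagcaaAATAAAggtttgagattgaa
The Malat1 stretch holds a run of 12 A, and the Neat1 stretch a run of 5. The letters TTTTGCTTTT, followed within 60 bases by AAAAAGCAAAA on the same strand, occurred in 4 of 141767 transcripts (0.00282%): Malat1-201, Neat1-201 and 2 transcripts of Retreg3. A match is a description of the letters only.

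Promoter windows of 250 bases before and 50 after the transcription start were found in RefSeq's GRCm38.p6 table for 5 of the 6 members. The table held no window for Neat1. Those of both noncoding RNAs are shown because these genes are compared below, with the letters CCAAT (the NF-Y box) and TGACGT (the core of the CRE, bound by CREB and ATF factors), or their reverse complements ATTGG and ACGTCA, in capitals.
Kcnq1ot1, chr7:143296498-143296797, minus strand: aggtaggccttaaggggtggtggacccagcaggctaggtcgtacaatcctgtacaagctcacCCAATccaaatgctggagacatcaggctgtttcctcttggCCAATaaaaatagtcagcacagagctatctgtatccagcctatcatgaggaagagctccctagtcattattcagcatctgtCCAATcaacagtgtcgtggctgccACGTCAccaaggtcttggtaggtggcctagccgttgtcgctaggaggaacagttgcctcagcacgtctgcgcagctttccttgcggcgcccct
Malat1, chr19:5802623-5802922, minus strand: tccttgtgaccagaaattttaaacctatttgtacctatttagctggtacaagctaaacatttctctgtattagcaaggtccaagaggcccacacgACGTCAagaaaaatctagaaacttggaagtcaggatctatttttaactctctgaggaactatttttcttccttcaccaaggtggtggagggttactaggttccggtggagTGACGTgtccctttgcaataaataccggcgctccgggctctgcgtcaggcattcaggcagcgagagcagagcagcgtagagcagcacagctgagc
The Kcnq1ot1 window held 3 CCAAT boxes and 1 TGACGT, and the Malat1 window held 2 TGACGT and no CCAAT. Over all 32851 windows of this length, 37.4% held a CCAAT, 3.37% held 3 or more, and 7.51% held a TGACGT. The E-box CACGTG, the same on both strands, was found in 7.15% of windows and in 1 of 2 windows of Mlxipl, which also held 1 CCAAT. No window of Nlrp6 or Snhg11 held any of the 3 motifs.

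Values are gene read counts that the authors had scaled to 20 M (mega) per library, so they are given as reads per 20 M. The estimated depth was 15.08 to 25.02 M reads per library, at which 3 reads equal 2.40 to 3.98 reads per 20 M. Ptprk held 2758, 2883 and 2724 reads per 20 M in WT low-fat and 1117, 1364 and 1333 in KO low-fat libraries, and 2174, 2578 and 2469 in WT high-fat and 1217, 1204 and 1179 in KO high-fat libraries. All KO libraries were below all WT libraries, by -1.13 ± 0.0935 (SE, log2) in the low-fat fraction (adjusted p = 0.0013, limma) and -0.99 ± 0.0935 in the high-fat fraction (adjusted p = 0.00501). Hepatocyte markers summed to between 874158 and 1044374 reads per 20 M, and all 12 were present. Markers of Kupffer, stellate and sinusoidal endothelial cells were low in low-fat and higher in high-fat libraries. The 9 Kupffer cell markers summed to 321 to 1090 reads per 20 M in low-fat libraries and to 1851 to 10375 in high-fat libraries. Cholangiocyte markers went the other way, from 382 to 481 at low fat to 311 to 364 at high fat in WT. In KO they went from 371 to 507 to 271 to 355. Lymphocyte and neutrophil sums overlapped between fractions. WT1 and KO2 high-fat stood apart, with Kupffer sums of 10375 and 8940 against at most 2104 in the other high-fat libraries.

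Per kilobase of exon, Malat1 was the most abundant member, at a mean of 7581.78 reads per 20 M per kilobase over the 12 libraries. Mlxipl followed at 1476.86, Neat1 at 1041.14 and Nlrp6 at 754.1. The ranges of Mlxipl (827.92 to 2582.16), Neat1 (248.13 to 2428.0) and Nlrp6 (552.06 to 1197.99) overlapped. Snhg11 (7.03) and Kcnq1ot1 (5.98) were lowest, and their ranges of 2.11 to 19.13 and 3.42 to 15.23 overlapped as well. For Kcnq1ot1, a single transcript of 93.09 kilobases on chromosome 7, and for Neat1, of 20.77 kilobases on chromosome 19, how evenly reads were spread was not tested. All members together made up 0.175% to 0.8666% of a library.

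Malat1, on chromosome 19, held 43007, 72093 and 22017 reads per 20 M in the low-fat libraries of WT1, WT5 and WT6, and 106548, 82792 and 28576 in their high-fat libraries. In KO2, KO4 and KO6 it held 33894, 73160 and 21337 in the low-fat and 104542, 21711 and 25646 in the high-fat libraries. The high libraries were both of WT5, the high-fat ones of WT1 and KO2 and the low-fat one of KO4, and the range of each group overlapped that of each other group. The highest value was 4.99 times the lowest. Neat1, its neighbour on the same strand, held 18656, 31131 and 5154 in WT low-fat and 47272, 20472 and 5296 in WT high-fat libraries. Its KO values were 9186, 50432 and 7683 in the low-fat and 47556, 9973 and 6696 in the high-fat libraries. Neat1 spanned 9.79-fold, the widest range of the 6 members, and was highest in the low-fat library of KO4.

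Nlrp6, on chromosome 7, had the narrowest range, 2.17-fold. It held 3297, 4204 and 2805 reads per 20 M in WT low-fat and 4854, 3864 and 2950 in WT high-fat libraries. The KO low-fat libraries held 3376, 4995 and 3090, and the KO high-fat libraries 6087, 3555 and 2902. Mlxipl, on chromosome 5, held 5607, 12096 and 4585 in WT low-fat, 9942, 12633 and 5438 in WT high-fat, 6499, 10876 and 5368 in KO low-fat and 14300, 5581 and 5221 in KO high-fat libraries. For Mlxipl the same 5 libraries as for Malat1 were highest, and the remaining 7 lay between 4585 and 6499.

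Kcnq1ot1 and Snhg11 showed a different order of libraries, with the high-fat library of WT5 highest for both. Kcnq1ot1 held 355, 561 and 418 reads per 20 M in WT low-fat, 515, 1418 and 620 in WT high-fat, 318, 606 and 329 in KO low-fat and 702, 341 and 495 in KO high-fat libraries. After its value of 1418 the next highest was 702, in KO2 high-fat. Kcnq1, the coding gene that Kcnq1ot1 overlaps on the opposite strand, held only 4 to 57 reads per 20 M. Snhg11, on chromosome 2, held 18, 97 and 27 in WT low-fat and 98, 163 and 51 in WT high-fat libraries. In KO libraries it held 21, 47 and 33 in the low-fat and 99, 29 and 36 in the high-fat fraction, so its lowest values rest on few reads.

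**Figure D1:**
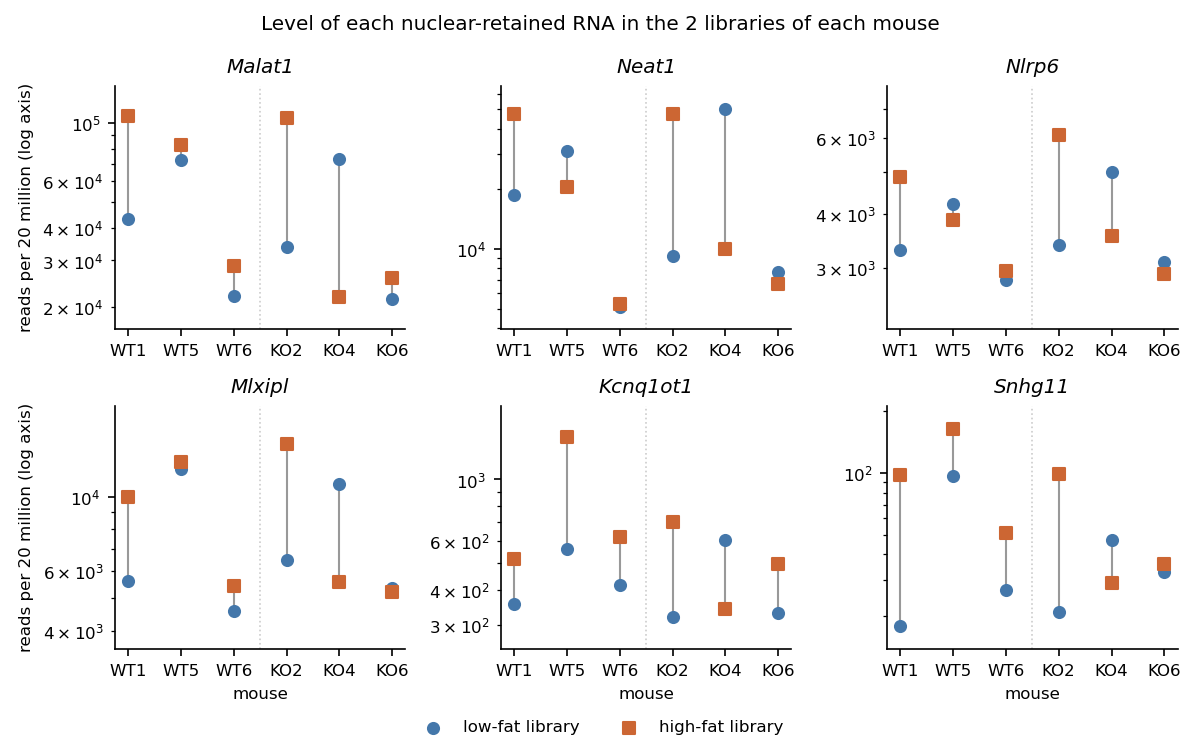
Level of each member in reads per 20 M (log axis) in the low-fat (circles) and high-fat (squares) library of each mouse, with a line joining both libraries of a mouse. The high-fat library is far above the low-fat one in WT1 and KO2 and far below it in KO4 for Malat1, and WT6 and KO6 are low in both libraries.

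On the log2 scale the SD over the 12 libraries was 0.879 for Malat1, 1.23 for Neat1, 0.938 for Snhg11, 0.586 for Kcnq1ot1, 0.559 for Mlxipl and 0.31 for Nlrp6. The median SD of the 10517 genes that averaged 100 or more reads per 20 M was 0.163. Neat1 varied more than 99.2% of these genes, Malat1 more than 97.6%, Kcnq1ot1 more than 94.6%, Mlxipl more than 94.0% and Nlrp6 more than 84.4%. Of the sum of squares of the log2 level, 43.0% (Kcnq1ot1) to 64.4% (Mlxipl) lay between mice. The median over the members was 57.3%, beside a median of 56.8% over all genes tested. The difference between fractions that all mice shared took 0.0406% (Neat1) to 23.4% (Snhg11), with a median of 2.48% beside 10.6% over all genes. The remainder, which is how far single mice departed from that shared difference, took 31.0% to 43.0%, with a median of 37.0% beside 23.5%. These shares are descriptions without a test.

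The first question the design asks is whether high-fat and low-fat hepatocytes of the same livers differ. Malat1 was higher in the high-fat library in 5 of 6 mice, with log2 differences of 1.22, 0.24 and 0.26 in WT1, WT5 and WT6 and of 1.45, -1.77 and 0.28 in KO2, KO4 and KO6. Snhg11 was also higher in 5 of 6 mice (2.23, 0.78, 0.77, 1.97, -0.67 and 0.14 in the same order), and so was Kcnq1ot1 (0.44, 1.38, 0.46, 0.97, -0.84 and 0.60). Mlxipl was higher in 4 of 6 mice (0.73, 0.10, 0.13, 0.97, -0.98 and -0.02). KO4 was the 1 mouse in which all 6 members were lower in the high-fat library. Neat1 (1.25, -0.56, -0.07, 2.20, -2.35 and -0.18) and Nlrp6 (0.46, -0.08, -0.04, 0.68, -0.50 and -0.07) were higher in WT1 and KO2 alone.

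**Figure D2:**
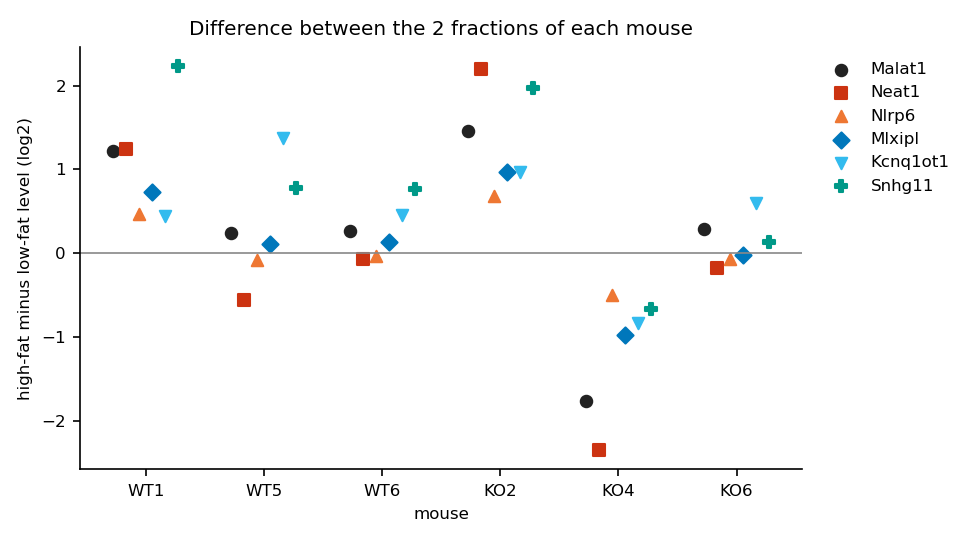
High-fat minus low-fat log2 level of each member in each of the 6 mice; the grey line marks no difference. All 6 members lie above the line in WT1 and KO2 and below it in KO4, while WT5, WT6 and KO6 hold members on both sides.

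With the mean of both genotypes, no member passed the test at an adjusted p under 0.05 (limma, Benjamini-Hochberg over the 16563 genes), where 5.77% of all genes did, and 0 members had an unadjusted p under 0.05. The difference was 0.87 ± 0.433 for Snhg11 (SE, log2, adjusted p = 0.323, exact sign-flip permutation p over 6 mice = 0.0938) and 0.50 ± 0.269 for Kcnq1ot1 (adjusted p = 0.365, exact p = 0.156). For Malat1 it was 0.28 ± 0.475, for Mlxipl 0.16 ± 0.313, for Nlrp6 0.08 ± 0.177 and for Neat1 0.05 ± 0.697, with adjusted p-values of 0.814 to 0.983. No member differed in the same direction in all 6 mice, as 21.5% of the genes tested did. With the mouse as a block, 11% of genes and no member passed. The count of 956 genes without the block fell to 604 without the low-fat library of KO2 and to 619 without its high-fat library.

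Within WT mice the largest difference between fractions was that of Snhg11, 1.26 ± 0.612 (SE, log2, adjusted p = 0.481, limma), followed by Kcnq1ot1 at 0.76 ± 0.381 (adjusted p = 0.498). No member and 0% of all genes passed in WT, although 1847 genes had an unadjusted p under 0.05. Within KO mice the members' differences lay between -0.11 (Neat1) and 0.48 (Snhg11), and none passed, where 0.839% of all genes did, 0.809% higher and 0.0302% lower (1.7% in all with the mouse as a block). That count of 139 genes dropped to between 0 and 37 when any 1 KO library was left out. The groups overlapped for every member, where 17.4% of genes in WT and 13.4% in KO had groups that did not overlap. An exact permutation test of 3 against 3 libraries cannot give a p below 0.1, and the members' exact p-values were 0.2 to 1.

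The second question is whether the loss of Ptprk went with a difference in these RNAs. In the low-fat libraries the KO minus WT difference lay between -0.17 ± 0.612 (SE, log2, Snhg11) and 0.15 ± 0.25 (Nlrp6). In the high-fat libraries Snhg11 (-0.95 ± 0.612), Malat1 (-0.70 ± 0.672) and Kcnq1ot1 (-0.64 ± 0.381) were lower in KO, with groups that overlapped. For Malat1 KO2 (104542) was near WT1 (106548), and KO4 and KO6 were near WT6 (21711, 25646 and 28576). No member passed the test in either fraction, and the adjusted p was 1 for each of them (limma). Of all genes 0.00604% passed in each fraction, which was Ptprk alone. The groups did not overlap for 5.43% of genes at low fat and 5.19% at high fat, while those of every member did. Ptprk lost its call in the high-fat libraries without the library of WT6, of KO4 or of KO6. The interaction of genotype and fat fraction passed for 0% of all genes and no member (24 genes and no member had an unadjusted p under 0.05), with member values between -0.78 ± 0.865 (Snhg11) and -0.08 ± 0.353 (Nlrp6).

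The third question is how the members varied together, which was asked between mice and within mice. The 6 mice are the units here, because both libraries of a mouse come from 1 animal. All 30 relations between 2 members, 15 on the mean level of a mouse and 15 on its difference between fractions, had a positive Pearson r. They are not independent of each other, and the genes were put together with results of these libraries known, so the p-values are no independent evidence that such genes vary together. Between mice r lay between 0.094 (Kcnq1ot1 with Nlrp6) and 0.945 (Kcnq1ot1 with Snhg11), with a median of 0.796. Malat1 and Neat1 had r = 0.903 (exact permutation p = 0.0181, adjusted p = 0.0451 over the 30 relations) and rho = 0.829, and r = 0.508 without the 2 mice farthest from the median of Malat1. Mlxipl and Snhg11 had r = 0.796 (exact p = 0.0167, adjusted p = 0.0451), rho = 0.714, and r = 0.795 without 2 mice. The other 13 pairs did not pass.

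Between mice the order was carried by low and high animals. On the mean log2 level of both libraries Malat1 ran from 14.56 in KO6 and 14.65 in WT6 to 16.03 in WT1 and 16.21 in WT5. Neat1 was likewise lowest in WT6 (12.39) and KO6 (12.86), and highest in WT1 (14.84). Kcnq1ot1 stood out in WT5 alone, at 9.78 against 8.71 to 9.04 in the other 5 mice, and Snhg11 likewise at 6.97 against 5.23 to 5.57. Without WT5 the r of Kcnq1ot1 with Malat1 was -0.274, with Neat1 -0.479, with Nlrp6 -0.263 and with Mlxipl -0.211. Without both WT5 and WT6, the mice farthest from the median of Kcnq1ot1, these r were again positive. They were 0.407 with Malat1, 0.409 with Neat1, 0.834 with Nlrp6 and 0.881 with Mlxipl. The sign of these relations thus depended on which mice were kept. The r of Kcnq1ot1 with Snhg11 fell from 0.945 to as low as 0.107 when 1 mouse was left out. Pairs with Nlrp6 changed sign as well without the 2 mice farthest from the median of the first gene. Malat1 with Nlrp6 went from 0.805 to -0.388, Neat1 with Nlrp6 from 0.909 to -0.849 and Nlrp6 with Snhg11 from 0.292 to -0.422. In that setting 12 of the 15 pairs had a positive r, with a median of 0.526.

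Within mice the members moved together more closely. For their high-fat minus low-fat differences r lay between 0.557 and 0.988, with a median of 0.935, and all 10 pairs without Kcnq1ot1 passed at an adjusted p of 0.025 to 0.0451 (exact permutation over 6 mice). Malat1 and Mlxipl had r = 0.988 (exact p = 0.00694, adjusted p = 0.0298) and rho = 0.829. Neat1 and Nlrp6 had r = 0.987 with the smallest p that 6 mice can give, 0.00139 (exact, adjusted p = 0.025), and the same order of all mice, rho = 1. Malat1 and Neat1 had r = 0.965 (exact p = 0.00278, adjusted p = 0.025) and rho = 0.943. No rank correlation passed after adjustment, with a smallest adjusted p of 0.0833 for Neat1 and Nlrp6.

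The differences of Malat1, Neat1 and Mlxipl were farthest from 0 in WT1, KO2 and KO4, whereas that of Kcnq1ot1 was farthest in WT5. Without the 2 mice farthest from the median the 10 pairs had an r of 0.878 to 0.998, and without KO4 an r of 0.852 to 0.996. Each of these settings kept at least 1 of WT1, KO2 and KO4, so they cannot show whether the pairs hold beyond those mice. Leaving out 1 mouse lowered the 12 relations that passed to 0 for each of 5 mice and to 6 for KO6, with 5 mice allowing fewer orders. Kcnq1ot1 was again apart: its r with the other members was 0.557 to 0.754, none passed, and without KO4 all 5 values lay between -0.141 and -0.033. Within a genotype there are 3 mice, too few for a correlation. The exact tests treat the 6 mice as exchangeable, but mice of the same replicate number were alike in part: the difference of Malat1 was 1.22 in WT1 and 1.45 in KO2, and 0.26 in WT6 and 0.28 in KO6, but 0.24 in WT5 and -1.77 in KO4. If a number marks a shared batch, which the labels do not say, these p-values are too small, and 3 pairs of mice are too few to test the relations within numbers. The lymphocyte and neutrophil markers, described below, had high sums in the same libraries. WT1 and KO2, 1 of each genotype, had all 6 members higher in the high-fat library.

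A high r between differences was not rare among other genes. Of 10512 non-members that averaged 100 or more reads per 20 M, 6.25% had an r above 0.9 with Malat1's difference, 8.01% with that of Nlrp6 and 0.875% with that of Kcnq1ot1, while 9.47% had an r below -0.9 with that of Malat1. Between mice 2.69% had an r above 0.9 with Malat1. Over the 12 libraries Malat1, Neat1, Nlrp6 and Mlxipl had r = 0.86 to 0.933 among themselves. Kcnq1ot1 and Snhg11 had r = 0.829, while Neat1 with Kcnq1ot1 had r = 0.332. The members did not part into separate sets, since Snhg11 had r = 0.811 with Mlxipl and 0.741 with Malat1, and Kcnq1ot1 had 0.652 with Mlxipl. Of the 10512 non-members, 27 had a higher r with Nlrp6 than Neat1 had, and 269 had a higher r with Mlxipl than Neat1 had. Those were the fewest and the most among pairs of Malat1, Neat1, Nlrp6 and Mlxipl. These r over libraries are descriptions, since libraries share mice.

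The genes most like the members were found by their r, over 12 libraries, with the mean of the members' log2 levels, each centred on its own mean. Leng8 was nearest (r = 0.990), with 672 to 2810 reads per 20 M. It was followed by Pnisr (0.985), Rsrc2 (0.985), Firre (0.984), Clk4 (0.983), Clasrp (0.982), Tgfbr3l (0.979) and Gm20417 (0.977). Clk4 is a kinase that phosphorylates SR splicing factors, Clasrp is an SR-related protein named for its binding to such kinases, Pnisr and Rsrc2 code for arginine- and serine-rich proteins, and Firre is a long noncoding RNA that stays in the nucleus. In Leng8 the 5 libraries high for Malat1 held 1706 to 2810 and the other 7 held 672 to 900. At the opposite end were Mrps34 (-0.975), a mitochondrial ribosomal protein, D10Jhu81e (-0.970), Eif3f (-0.967), a subunit of a translation initiation factor, and Acad8 (-0.964), an enzyme of valine breakdown. Their ranges were narrow, 1042 to 1388 for Mrps34 and 1323 to 1623 for Eif3f. Some of these genes overlap exons of a neighbour on the opposite strand, such as Leng8 with Leng9 and Mrps34 with Mapk8ip3, and without the strand their reads cannot be told apart. Tgfbr3l overlaps exons of Gm49320 (385 to 702 reads per 20 M) and Mrps34 those of Nme3 on the same strand, where the strand would not part them. In all, 161 of the 10512 genes (1.53%) had an r above 0.9 and 166 (1.58%) below -0.9. Without WT1 and KO2 high-fat, the libraries with the highest Kupffer sums, the counts were 129 and 124, and Leng8 had r = 0.991.

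**Figure D3:**
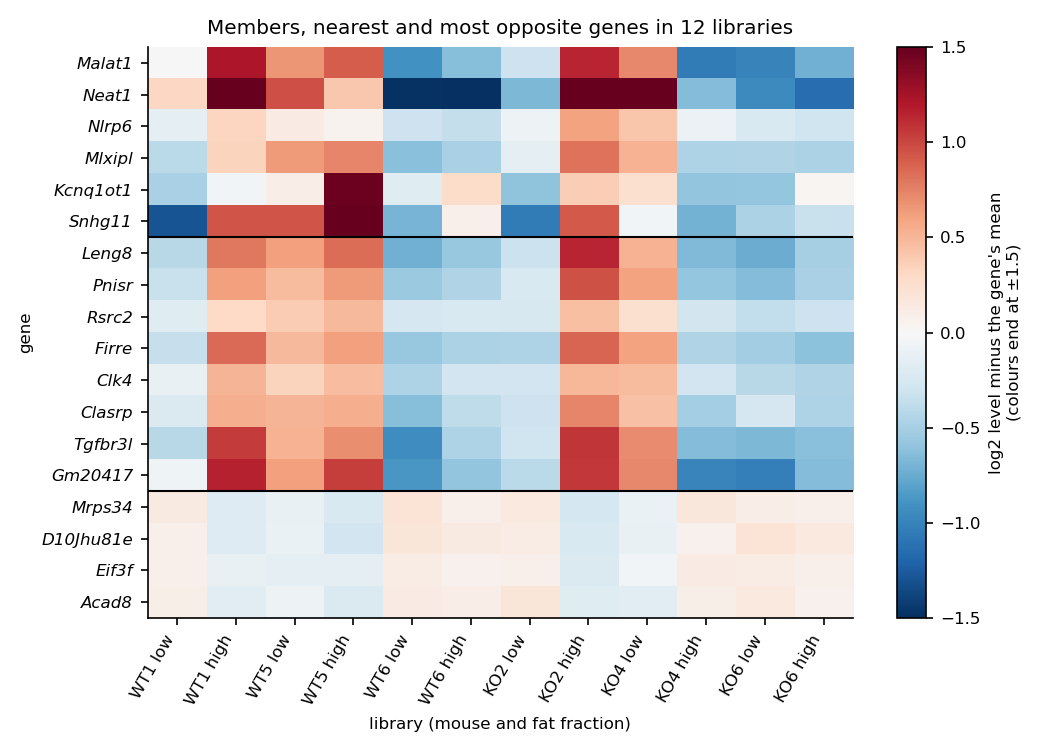
Log2 level minus the gene's own mean in each of the 12 libraries for the 6 members (top), the 8 genes with the highest r (middle) and the 4 with the lowest r (bottom) to the members' mean, with colours ending at ±1.5. The libraries WT1 high, WT5 low, WT5 high, KO2 high and KO4 low are red for the 8 nearest genes, and the 4 opposite genes show smaller, inverse differences.

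For single members the nearest genes in part share sequence with them. Gm27694 (r = 0.997 with Malat1) lies within an exon of Malat1, and Gm27533 (0.983 with Neat1) within one of Neat1, both on the same strand, so reads of these genes cannot be told apart. The second nearest were Gm20417 for Malat1 (0.997), which is not in GENCODE M21, and Srrt for Neat1 (0.978), which codes for a protein of the nuclear cap-binding machinery. For Nlrp6 they were Mapk8ip3 (0.967), a scaffold of JNK signalling, and Slc2a4rg-ps (0.961). Mlxipl was followed by AC149090.1 (0.982), not in GENCODE M21, and Ttc14 (0.979). Kcnq1ot1 was nearest to Gm11342 (0.958) and Zfp280d (0.932), and Snhg11 to Xrcc3 (0.945), a DNA repair gene, and Prpf39 (0.944), a splicing factor. Zfp280d spanned 260 to 535 reads per 20 M and was highest in WT5 high-fat, as Kcnq1ot1 was.

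Lists of genes that work with the members differed in how closely they followed them. Over all 16563 genes tested, 8419 had a positive r with the members' mean. The median r over the 10512 non-members that averaged 100 or more reads per 20 M was -0.26. Of 19 genes of nuclear speckle proteins, 18 had a positive r with the members' mean, with a median of 0.853 beside 0.0161 over all genes tested, and 0.793 without WT1 and KO2 high-fat. Clk4 led, and among genes chosen after their values were seen, Clk1 (0.976) held 634 to 1487 and the splicing factor Srsf11 (0.975) held 855 to 1886 reads per 20 M, while Rnps1 (-0.399) was the exception. Of 15 paraspeckle protein genes, 12 had a positive r (median 0.533). Also chosen after their values were seen, Sfpq had r = 0.777, whereas Nono, its partner in paraspeckles, had -0.455 and held 1306 to 1837. None of the genes of either list passed the test between fractions or genotypes. Among 9 other long noncoding RNAs of the nucleus that were tested, 8 had a positive r (median 0.637, and 0.422 without both libraries). Airn, which silences an imprinted locus, was the 1 called gene of that list: it held 2 to 6 reads per 20 M in low-fat and 8 to 16 in high-fat libraries, higher by 1.15 ± 0.264 (SE, log2, adjusted p = 0.0256, limma) and in 6 of 6 mice.

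Lists of genes downstream of or next to the members differed in the same way. Of 22 partners and targets of ChREBP, the product of Mlxipl, 8 had a positive r with the members' mean and the median was -0.16. That median lay between those of all genes tested (0.0161) and of the non-members that averaged 100 or more reads per 20 M (-0.26). Gckr, the glucokinase regulator, had the highest r of that list, 0.945, and was chosen after its values were seen. It held 7032 to 7996 reads per 20 M in the 5 libraries high for Mlxipl and 4422 to 5117 in the other 7. The 1 called gene of that list, Tm6sf2, which acts in lipoprotein secretion, was lower in high-fat libraries by -0.61 ± 0.147 (SE, log2, adjusted p = 0.0322, limma), in all 6 mice. In the Kcnq1 imprinted domain 3 of 8 genes tested had a positive r (median -0.273) and none was called. Of 16 hosts of small nucleolar RNAs 9 had a positive r (median 0.26), a share near the 8419 of 16563 over all genes tested. Of 14 inflammasome genes 9 did (median 0.591, and 0.388 without both libraries), and none of either list was called.

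**Figure D4:**
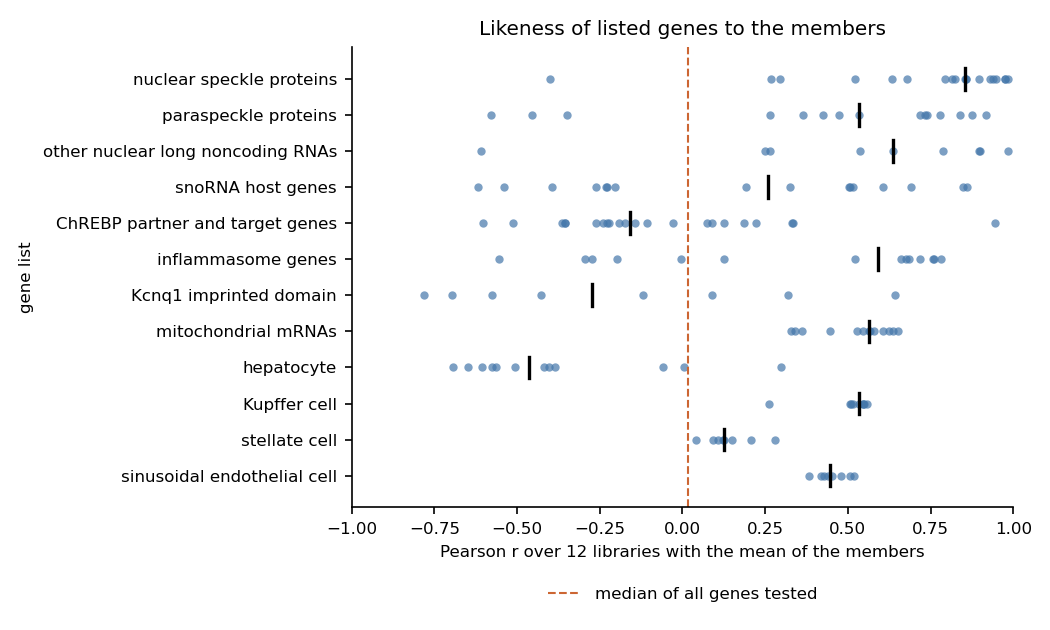
Pearson r over the 12 libraries between each listed gene's log2 level and the mean of the 6 members (points), with the median of each list (black bars) and of all genes tested (dashed line). Genes of nuclear speckle proteins lie farthest to the right, with a median of 0.853, and hepatocyte markers mostly to the left of 0.

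Other properties of the libraries moved with the members in part. Of the 12 libraries, the 5 in which most members were above their own means, with a centred mean of 0.572 to 0.896, were also the 5 with the most genes above 0, at 23695 to 24349. The other 7, at -0.70 to -0.336, had 21755 to 23214. The mitochondrially encoded share of reads was 4.243% in WT5 high-fat, 3.07% in KO2 high-fat and 2.892% in WT1 high-fat, but 1.906% in WT5 low-fat and 2.154% in KO4 low-fat, within the 1.587% to 2.71% of the other 7. All 13 mitochondrial messenger RNAs had a positive r with the members' mean (median 0.565). Depth did not order the libraries in this way, since the 5 had 18.41 to 24.36 M reads and the other 7 had 15.08 to 25.02 M. The part of these properties in the members' levels was not tested.

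Markers of Kupffer, stellate and endothelial cells differed between the fat fractions. In high-fat libraries 8 of 9 Kupffer, 8 of 8 stellate and 8 of 8 sinusoidal endothelial markers were called higher (limma, mean of both genotypes), as were 5.05% of all genes, and their median r with the members' mean was 0.534, 0.125 and 0.447. Without WT1 and KO2 high-fat these medians were 0.122, -0.147 and 0.127. KO4 low-fat and WT5 low-fat, which were high for Malat1, had Kupffer sums of 499 and 1090 reads per 20 M, while WT6, KO4 and KO6 high-fat, which were low for Malat1, had 1851 to 2006. The Kupffer sum of KO4 went from 499 at low fat to 2006 at high fat, the same direction as in the other 5 mice, although its members went the other way. The 8 lymphocyte and neutrophil markers, of which 2 passed the filter and none is at 0 in all libraries, parted the same 5 libraries from the other 7. The order within the 5 differed: WT5 high-fat, with a centred member mean of 0.882, had the lowest sum of the 5, close to the 109 of KO4 high-fat. They summed to 420 in WT1 high-fat, 344 in KO2 high-fat, 317 in KO4 low-fat, 199 in WT5 low-fat and 121 in WT5 high-fat, and to 28 to 109 reads per 20 M in the other 7 libraries. By group the sums ran from 30 to 199 (WT low-fat), 90 to 420 (WT high-fat), 28 to 317 (KO low-fat) and 71 to 344 (KO high-fat). In KO4 they were higher in the low-fat library (317 against 109), as the members were. Ptprc, which codes for the leukocyte antigen CD45 and makes up most of these sums, had r = 0.832 with the members' mean (0.742 without WT1 and KO2 high-fat), and Cd3e, a T cell marker, had 0.613 (0.594). Neither was called between fractions (adjusted p = 0.336 and 0.922, limma). The part of these cells in the members' levels was not tested. Of 6 cholangiocyte markers 2 passed the filter, with r of 0.238 for Sox9 and -0.561 for Spp1. Of 12 hepatocyte markers 2 had a positive r (median -0.463). Their median difference between fractions was -0.148 (log2, high-fat minus low-fat), so most were slightly lower at high fat. The 1 that was called went the other way: Cyp2e1, an enzyme that oxidises ethanol and fatty acids, was higher in the high-fat libraries by 0.73 ± 0.165 (SE, log2, adjusted p = 0.0231, limma). In bulk samples, fewer cells of a type and less RNA per cell cannot be told apart.

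**Figure D5:**
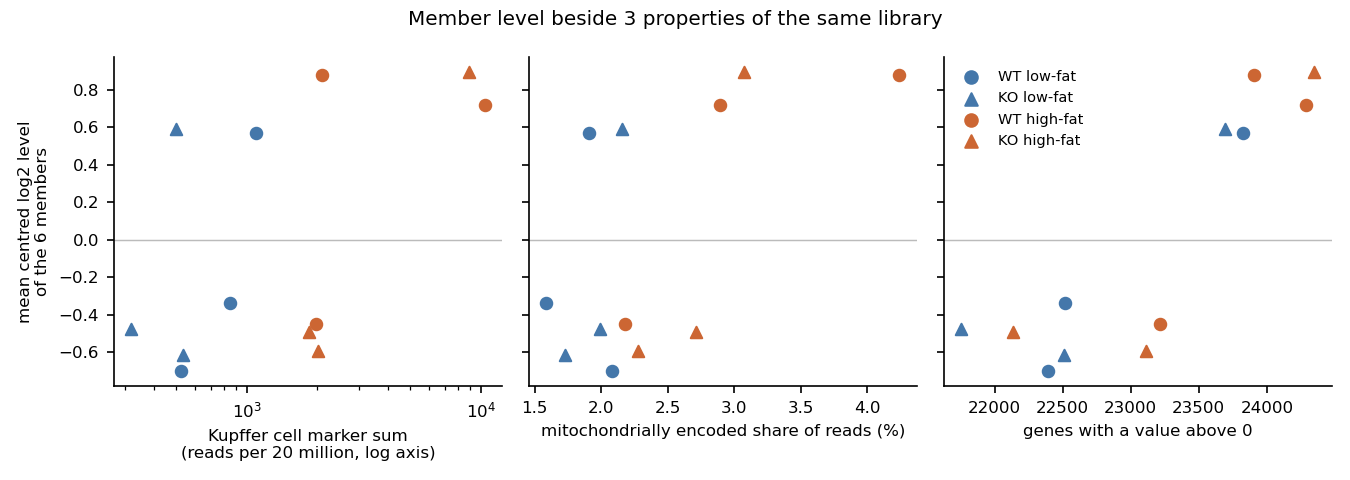
Mean centred log2 level of the 6 members (y axis) against the Kupffer cell marker sum (reads per 20 M, log axis), the mitochondrially encoded share of reads and the number of genes above 0, for 12 libraries (circles WT, triangles KO, blue low-fat, orange high-fat). The 5 libraries above 0 on the y axis have the most genes detected, while 2 of them have Kupffer sums of only 499 and 1090.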

How the data were processed

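RNA sequencing values of 12 mouse hepatocyte libraries were read from the deposited table of 52636 genes. The deposited values are a score: gene read counts that the authors had scaled to 20 M (mega) and rounded up to whole numbers, as read from the column sums and from gaps between low values. The genome build is mm9, per the submitters' processing notes. The aligner, the counter and the use of strand are not given in the sources used here, so antisense and overlapping genes may share reads. On the opposite strand, Malat1 overlaps exons of Gm37376 (865 to 7211 reads per 20 M) and Mlxipl those of Gm43500 (32 to 332). GENCODE M21 (99.56% of the gene identifiers found) gave strands, lengths, transcripts and the overlaps between genes. Its gene coordinates, from which the overlaps were read, are on a build other than mm9 and are not printed. The shared end letters are the longest 3′ suffix of Neat1-201 found in Malat1-201 and the longest letters both hold just before it, from their first run of T. Sequencing depth was estimated from the gaps. In 7 simulated libraries the largest error of the factor was 0.013%, and a floor of 3 reads covers counting error only.

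Genes that reached 10 in 3 or more libraries were scaled by trimmed means of M values and fitted as log2(value + 2) with limma 3.58.1 in R 4.3.3, with a mean for each of 4 groups over all 12 libraries, an intensity trend and Benjamini-Hochberg adjustment. The 6 comparisons were tested two-sided, with calls at an adjusted p under 0.05. Fold changes on this scale understate those of low genes. On simulated data with changed genes of log2 size 1, between 51% (KO against WT, low-fat, 16201 genes) and 60.8% (high-fat against low-fat, KO, 16211 genes) were recovered. At size 2 it was 72% (KO against WT, low-fat) to 82.5% (high-fat against low-fat, WT, 16206 genes), with 4 to 8 false calls in a comparison. The changed genes were drawn at random from all genes, with independent noise for each gene. The members varied more than 61.5% (Nlrp6) to 98% (Neat1) of the genes tested, so these rates are not those of the members, which were not estimated. Single values had exact permutation tests.

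The members and the gene lists were chosen with earlier results of these data known. The genes named are the members, Ptprk, called genes of the lists, the 8 nearest and 4 most opposite genes to the members' mean and the 2 nearest to each member, with a mean of at least 100. For any other gene the text says that it was picked with its values in view. The pairing of fractions comes from the labels, which name 1 mouse for both libraries of a replicate number. The correlation of their deviations from the group means was 0.498, 0.469 and 0.582 in WT mice and 0.0443, -0.00869 and 0.46 in KO mice. Same-numbered WT and KO libraries are different mice, and their deviations correlated at 0.251, 0.396 and 0.296 in the low-fat libraries (mean of other pairs -0.155). Deviations from a mean of 3 libraries sum to 0, which pulls the other pairs down, so this contrast cannot show a pairing. The main tests of KO against WT were unpaired, and a term for the replicate number was an alternative only. In the high-fat libraries the values were 0.49, -0.171 and 0.381. The labels do not say whether a number marks a batch. Alternatives were another scaling, pseudocount and filter, the mouse as a block, a fit of the compared libraries alone, and each library or mouse left out.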

Additional observations from a re-analysis of the deposited data

How the results depend on the processing

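The 36 member effects (6 members in 6 comparisons) were refitted under 528 alternatives, and none gave a call (lowest adjusted p = 0.115). Their direction changed in 60, of which 54 left out a library. The other 6 were in the fractions of KO mice, where Malat1 changed from -0.0093 to 0.003095 with median-of-ratios scaling, 0.04591 with the deposited scaling alone and 0.01512 with only the libraries compared, and Mlxipl from -0.0102 to 0.002234, 0.04505 and 0.01426. No scaling moved the median of all genes by over 0.1. Below, each range is that of the log2 effect when 1 library was left out, for effects that changed direction. For KO against WT in low-fat libraries the ranges ran for Malat1 from -0.5756 to 0.2875, Neat1 from -0.7504 to 0.6097, Nlrp6 from -0.04068 to 0.28, Mlxipl from -0.1697 to 0.4847, Kcnq1ot1 from -0.4027 to 0.02107 and Snhg11 from -0.6493 to 0.4721. For KO against WT in high-fat libraries the ranges ran for Neat1 from -1.071 to 0.4844, Nlrp6 from -0.2076 to 0.2604 and Mlxipl from -0.6671 to 0.03963. For the fractions in WT mice the ranges ran for Neat1 from -0.5169 to 1.052 and Nlrp6 from -0.03762 to 0.2958. For the fractions in KO mice the ranges ran for Malat1 from -0.6632 to 0.4514, Neat1 from -0.895 to 0.7312, Nlrp6 from -0.2109 to 0.2272 and Mlxipl from -0.4167 to 0.2628. For the interaction the ranges ran for Neat1 from -1.161 to 0.5249 and Nlrp6 from -0.3528 to 0.1201. For the fractions over both genotypes the ranges ran for Malat1 from -0.03135 to 0.5668, Neat1 from -0.3321 to 0.4712, Nlrp6 from -0.0345 to 0.1705 and Mlxipl from -0.03305 to 0.3486. Leaving out 1 mouse in turn, r of the mouse means ran for Kcnq1ot1 and Malat1 from -0.274 to 0.675, for Kcnq1ot1 and Mlxipl from -0.211 to 0.825, for Kcnq1ot1 and Neat1 from -0.479 to 0.386 and for Kcnq1ot1 and Nlrp6 from -0.263 to 0.205. The r of the differences ran for Kcnq1ot1 and Malat1 from -0.0974 to 0.933, for Kcnq1ot1 and Mlxipl from -0.033 to 0.891, for Kcnq1ot1 and Neat1 from -0.141 to 0.899, for Kcnq1ot1 and Nlrp6 from -0.0728 to 0.817 and for Kcnq1ot1 and Snhg11 from -0.091 to 0.753.

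Counts of called genes moved as follows. A fit of only the libraries compared gave 0 calls for KO against WT in the low-fat (282 genes at an unadjusted p under 0.05) and the high-fat libraries (232), and 0 for the fractions in KO mice (1261). A pseudocount of 10 gave 1 call for the fractions in WT mice, against 0. With the replicate block, in which each mouse has its own term, the fractions in KO mice gave 282 calls against 139 and those over both genotypes 1819 against 956. In KO against WT the block has a term for each replicate number, and both fractions gave 1 call with it and without it. The block changed no call of a member. With 1 library left out, the counts ran from 0 to 1 for KO against WT in high-fat libraries, from 0 to 37 for the fractions in KO mice and from 604 to 1101 over both genotypes. Of the 30 relations between members, 12 passed, and 0 to 6 passed with 1 mouse left out. None passed without WT1 and KO2 (0 of 30), an alternative added after seeing the data, with 4 mice, too few for an exact p to reach the threshold after adjustment. The 10 pairs of differences that had passed had r = 0.853 to 0.997 in these 4 mice. KO4 lay apart from the other mice there, as for Malat1 with -1.77 in KO4 against 0.24 in WT5, 0.26 in WT6 and 0.28 in KO6. A single mouse can set such an r, so these values do not show that the relations hold without it. Snhg11 is the member that depth limits most, since its lowest value was 18 reads per 20 M. The cause of these changes was not tested.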
